A study of Mus musculus with 14 samples.

Results

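The 10 genes described here are expressed by granulocytes and mast cells: S100a8, S100a9, Csf3r, Cxcr2 and Il1b for neutrophils, Prg2 and Ccr3 for eosinophils, and Cpa3, Mcpt4 and Tpsb2 for mast cells. They were found by their symbol, as probe sets that the platform annotation assigns to that gene alone, which gave 11 of the 45037 probe sets of the mouse array, 2 for Tpsb2 and 1 for each other gene. They were read in whole uteri of C57BL/6 females dissected at day 3.5 of gestation, with the morning of the vaginal plug counted as day 0.5. The females were wild type or Folr4-/-, called mutant here, and had been injected with saline or with folinic acid, a reduced folate, before mating. Folinic acid was given intraperitoneally at 12.5 mg/kg in 2 injections, 10 and 3 days before mating; the labels give no schedule for saline, and all females were fed chow. There was 1 array for each of 4 wild-type uteri with saline, 3 wild-type uteri with folinic acid, 3 mutant uteri with saline and 4 mutant uteri with folinic acid. The labels call these biological replicates. The series asks whether the genotype alters what preconceptual folate does to the uterus.

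Neutrophils are short-lived phagocytes that leave the blood for sites of infection or injury, and in mice they enter the uterus after mating in response to semen. Eosinophils are granulocytes that oestrogen draws into the rodent uterus, guided by eotaxin chemokines. Mast cells live in the connective tissue and muscle layer of the uterus, and store proteases and histamine in granules. In whole tissue, fewer cells of a type and less RNA per cell cannot be told apart.

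All 14 genes of a list of uterine markers, among them Esr1, Pgr, Hoxa10 and Myh11, gave signals above the filter on dim probe sets (a mean log2 signal of 7.07, which is a signal of 134 and the median over probe sets). Of the members, 5 of 10 did so as well: S100a8 and Il1b of the neutrophil genes, and all 3 mast cell genes. S100a9 and Csf3r lay just below it, at percentiles 47.8 and 48.7 of mean signal, and Cxcr2 (15.7), Prg2 (22.0) and Ccr3 (2.27) far below. S100a8 and Il1b passed through the mutants given folinic acid alone: without that group their mean log2 signals were 7.01 and 6.84, under the filter. The eosinophil label was not borne out, since of its further defining markers Epx, Siglecf, Il5ra and Prg3 were all below the filter as well. The probe set of the mutated gene Folr4 (now Izumo1r) was dim too, from 13.5 to 72.4 in wild type and 6.14 to 70.2 in mutants, so it did not check the genotype labels. Median array signals ran from 130.0 to 157, and the 3-prime to 5-prime ratio of actin, a sign of RNA quality, from 1.54 to 3.64.

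Promoter sequences are shown for the pairs that varied most closely together in the data below, S100a8 with S100a9 and Cpa3 with Mcpt4. Each runs from 250 bases before to 50 bases after the annotated start, on the gene's own strand, from RefSeq on GRCm38.p6, and 8 of the 10 members matched that table. S100a8 (chr3:90668821-90669120, plus strand) and S100a9 (chr3:90695672-90695971, minus strand) are near each other on chromosome 3. Cpa3 is at chr3:20242132-20242431 and Mcpt4 at chr14:56062261-56062560, both on the minus strand. Capitals mark matches, on either strand, to TATAAA (the TATA box), GATAA (the core bound by GATA factors) or TTGCNNAA (bound by C/EBP factors). No match overlapped another.
S100a8: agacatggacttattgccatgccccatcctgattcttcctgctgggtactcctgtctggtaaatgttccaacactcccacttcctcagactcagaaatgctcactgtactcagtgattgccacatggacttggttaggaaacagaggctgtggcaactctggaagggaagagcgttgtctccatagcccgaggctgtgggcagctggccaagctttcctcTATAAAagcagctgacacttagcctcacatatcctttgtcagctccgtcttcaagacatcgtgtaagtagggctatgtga
S100a9: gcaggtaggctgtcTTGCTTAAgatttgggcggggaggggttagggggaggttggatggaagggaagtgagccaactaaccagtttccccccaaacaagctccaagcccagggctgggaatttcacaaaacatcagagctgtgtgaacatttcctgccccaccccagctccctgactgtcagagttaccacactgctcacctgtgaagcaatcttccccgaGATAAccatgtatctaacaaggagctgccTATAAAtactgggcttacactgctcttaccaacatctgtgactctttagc
Cpa3: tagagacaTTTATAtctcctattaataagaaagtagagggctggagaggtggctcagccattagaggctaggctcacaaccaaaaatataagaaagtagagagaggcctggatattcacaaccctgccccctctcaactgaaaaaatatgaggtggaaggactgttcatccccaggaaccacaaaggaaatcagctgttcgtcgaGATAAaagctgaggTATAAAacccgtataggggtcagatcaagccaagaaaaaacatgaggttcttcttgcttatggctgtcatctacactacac
Mcpt4: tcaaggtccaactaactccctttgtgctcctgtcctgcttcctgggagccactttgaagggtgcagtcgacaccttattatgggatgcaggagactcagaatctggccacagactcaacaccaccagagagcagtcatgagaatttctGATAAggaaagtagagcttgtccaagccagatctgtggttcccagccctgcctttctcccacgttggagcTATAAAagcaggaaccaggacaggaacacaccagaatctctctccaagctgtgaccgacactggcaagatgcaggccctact

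The letters TATAAA stood in 5 of the 8 member promoters, those of S100a8, S100a9, Il1b, Cpa3 and Mcpt4, and in 13.6% of all 32851 promoters of this length. In S100a8 they covered bases -30 to -25 from the start, in Il1b and Cpa3 bases -31 to -26 and in Mcpt4 bases -32 to -27, while in S100a9 they began at base 1. GATAA stood in 4 of 8, those of Cpa3, Mcpt4, Ccr3 and S100a9, against 25.4% of all promoters, and TTGCNNAA in S100a9 alone, against 10.8%. The mast cell pair thus shared a TATAAA match near the start and a GATAA match further up, at bases -45 to -41 in Cpa3 and -102 to -98 in Mcpt4. These matches describe the letters and show no binding.

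Neutrophil genes were very high in 1 uterus and high in another, both from mutants given folinic acid. S100a8 and S100a9 encode the subunits of calprotectin, a calcium- and zinc-binding protein that fills neutrophil cytoplasm and signals through Tlr4. In replicate order, S100a8 gave signals of 76.4, 118, 204 and 106 in wild type with saline, 265, 419 and 88.8 in wild type with folinic acid, 134, 86.0 and 58.9 in mutants with saline and 4708, 54.7, 682 and 92.3 in mutants with folinic acid. Signals of S100a9 were 43.1, 81.3, 246 and 51.6 in wild type with saline, 138, 382 and 54.0 in wild type with folinic acid, 82.8, 99.6 and 19.9 in mutants with saline and 3716, 42.6, 429 and 64.8 in mutants with folinic acid. Replicate 1 of the mutants given folinic acid stood 44.6-fold above the median of the other arrays for S100a8 and 45.7-fold for S100a9, and replicate 3 of that group 6.46-fold and 5.28-fold. Replicates 2 and 4 of the same group were no higher than the highest saline array for both genes, and S100a8 was lowest of all in replicate 2, so the groups overlapped.

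Il1b encodes interleukin-1 beta, a fever and inflammation cytokine made by neutrophils and macrophages. Signals of Il1b were 120.3, 70.1, 163 and 154 in wild type with saline, 96.5, 140.1 and 173 in wild type with folinic acid, 89.7, 66.9 and 127 in mutants with saline and 2079.7, 119, 414 and 126 in mutants with folinic acid. The same 2 arrays were the highest, replicate 1 by 16.5-fold and replicate 3 by 3.29-fold over the median of the others, and every other array lay at or below 173.

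The 2 receptors had the same pair of arrays on top. Csf3r, the receptor for the granulocyte growth factor G-CSF, is needed for neutrophil production. Signals of Csf3r were 117, 128, 73.7 and 52.3 in wild type with saline, 105, 92.8 and 48.1 in wild type with folinic acid, 141, 105 and 123 in mutants with saline and 681, 127, 299 and 164 in mutants with folinic acid. Every mutant given folinic acid was above every wild type given folinic acid, but replicate 2 of the mutants lay within the range of mutants with saline. Cxcr2, which steers neutrophils towards chemokines such as Cxcl1, gave 7.02, 3.42, 21.0 and 24.0 in wild type with saline, 4.30, 37.7 and 9.35 in wild type with folinic acid, 8.80, 11.3 and 2.56 in mutants with saline and 116, 9.52, 61.9 and 22.1 in mutants with folinic acid. Its 2 highest arrays were again replicates 1 and 3 of the mutants given folinic acid, though all its values were dim.

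**Figure D1:**
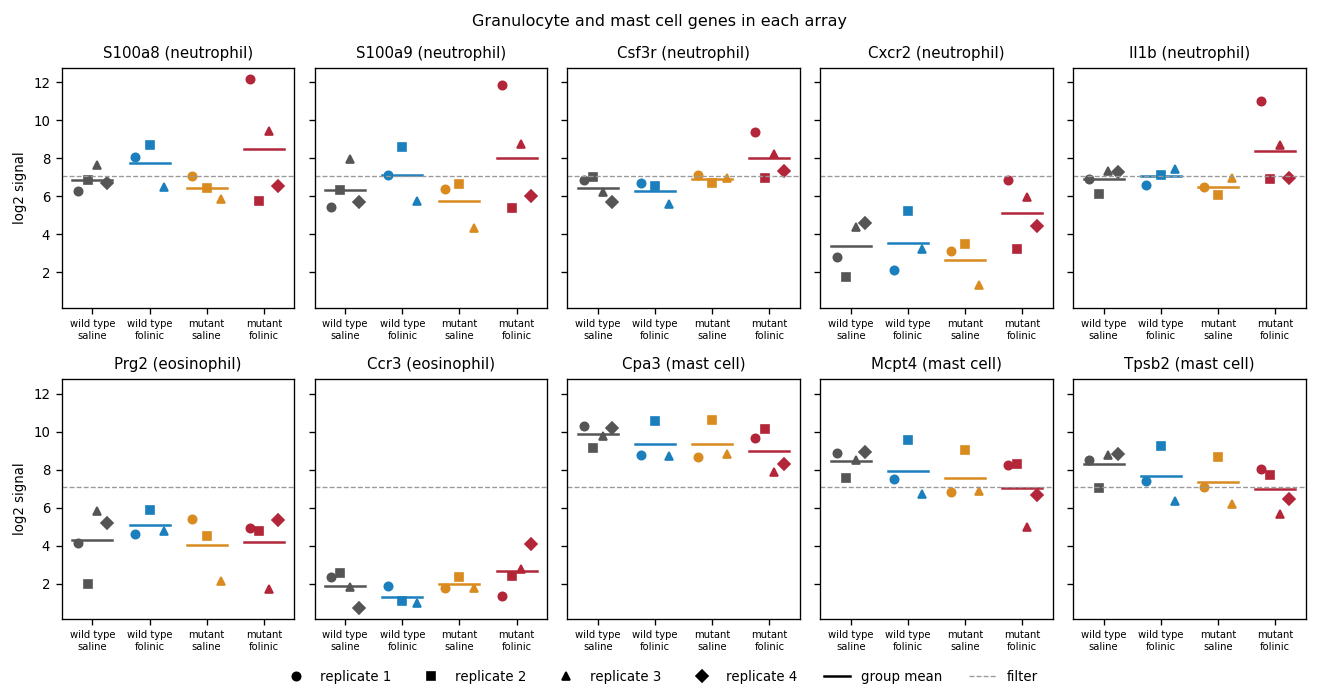
Log2 signal of each of the 10 genes (panels) on each of the 14 arrays, by group; marker shape gives the replicate, the solid bar the group mean of 3 or 4 arrays and the dashed line the filter at 7.07. Replicates 1 and 3 of the mutants given folinic acid lead all other arrays for S100a8, S100a9, Csf3r, Cxcr2 and Il1b, while the mast cell genes vary within every group and overlap between groups.

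No neutrophil gene passed the threshold after folinic acid in mutants, although all 5 had higher means. The comparison asks how mutant uteri responded to the supplement (4 against 3 arrays). The log2 differences were 2.02 ± 1.10 (SE) for S100a8 (adjusted p = 0.463), 2.23 ± 1.18 for S100a9 (adjusted p = 0.539), 1.06 ± 0.50 for Csf3r (adjusted p = 0.488), 2.47 ± 1.02 for Cxcr2 (adjusted p = 0.424) and 1.88 ± 0.73 for Il1b (adjusted p = 0.307). The values of S100a9, Csf3r and Cxcr2 come from a fit over all 45037 probe sets, since they lay below the filter. S100a8 and Il1b had passed the filter only through the mutants given folinic acid, so their values were read in that fit too, where the adjusted p was 0.535 for S100a8 and 0.391 for Il1b. In it the unadjusted limma p was 0.0177 for Il1b and 0.0279 for Cxcr2, and 5.04% of all probe sets were higher with a p under 0.05 (10.3% in either direction). limma called 0 of 22519 probe sets in this comparison (percent called 0, and 0.00444 over all probe sets), while 2887 had an unadjusted p under 0.05. Without replicate 2 of the mutants given folinic acid it called 662 probe sets, none of them a member (Il1b: adjusted p = 0.0867).

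The differences of S100a8 and S100a9 rested on 2 arrays, and those of the other neutrophil genes shrank without them. Without replicate 1 of the mutants given folinic acid they were 0.78 for S100a8, 0.95 for S100a9, 0.59 for Csf3r, 1.89 for Cxcr2 and 1.01 for Il1b. Without replicates 1 and 3 together, a choice made after seeing the data, they were -0.30 for S100a8, -0.060 for S100a9, 0.24 for Csf3r, 1.19 for Cxcr2 and 0.42 for Il1b.

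Folinic acid in wild-type uteri moved no neutrophil gene past the threshold (3 against 4 arrays). S100a8 had a log2 difference of 0.86 ± 1.10 and S100a9 of 0.79 ± 1.18, with wild-type folinic acid replicate 2 highest for both, while Csf3r (-0.17 ± 0.50), Cxcr2 (0.13 ± 1.02) and Il1b (0.14 ± 0.73) were near 0. All 10 members had an adjusted p of 0.99997 or more, and none had an unadjusted p under 0.05, where 2.71% of probe sets kept and 3.45% of all did (percent called 0 after adjustment). The response of mutants minus that of wild type, tested as an interaction, was 1.16 ± 1.55 for S100a8, 1.44 ± 1.67 for S100a9, 1.23 ± 0.71 for Csf3r, 2.33 ± 1.44 for Cxcr2 and 1.75 ± 1.03 for Il1b, with adjusted p from 0.905 to 0.965. None of the 10 members had an unadjusted p under 0.05 for the interaction, against 4.90% of probe sets kept and 5.06% of all (percent called 0 after adjustment). A difference in response between the genotypes was therefore not shown for any of them.

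Between genotypes under saline (3 against 4 arrays), where mutants without added folate are asked about, no member passed. Of the neutrophil genes S100a8 (-0.43 ± 1.10), S100a9 (-0.58 ± 1.18), Cxcr2 (-0.72 ± 1.02) and Il1b (-0.40 ± 0.73) had lower mutant means and Csf3r a higher one (0.49 ± 0.50). None of the 10 members had an unadjusted p under 0.05, against 3.11% of probe sets kept and 4.73% of all, and after adjustment 0.00444% and 0.00666% were called. S100a9 had a difference of 0.15 without mutant saline replicate 3.

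Under folinic acid (4 against 3 arrays) all 5 neutrophil genes had higher means in mutants than in wild type, and none passed (percent called 0.00444 of probe sets kept). Csf3r had the smallest p of the members. Its log2 difference was 1.71 ± 0.50, a 3.28-fold higher level. In limma its adjusted p was 0.99995, and the unadjusted p 0.00346. Its 4 mutant arrays (127 to 681) did not overlap the 3 wild-type arrays (48.1 to 105), a separation found upwards for 2.22% of all 45037 probe sets, and 1.69% were higher at an unadjusted p under 0.05 (3.89% in either direction, and 3.81% of probe sets kept). Without mutant replicates 1 and 3 its difference was 0.89. The others were 0.74 ± 1.10 for S100a8, 0.86 ± 1.18 for S100a9, 1.61 ± 1.02 for Cxcr2 and 1.35 ± 0.73 for Il1b. Without mutant replicate 1 the first pair turned to -0.51 and -0.42. The comparisons share arrays, so their values for a gene are not independent.

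**Figure D2:**
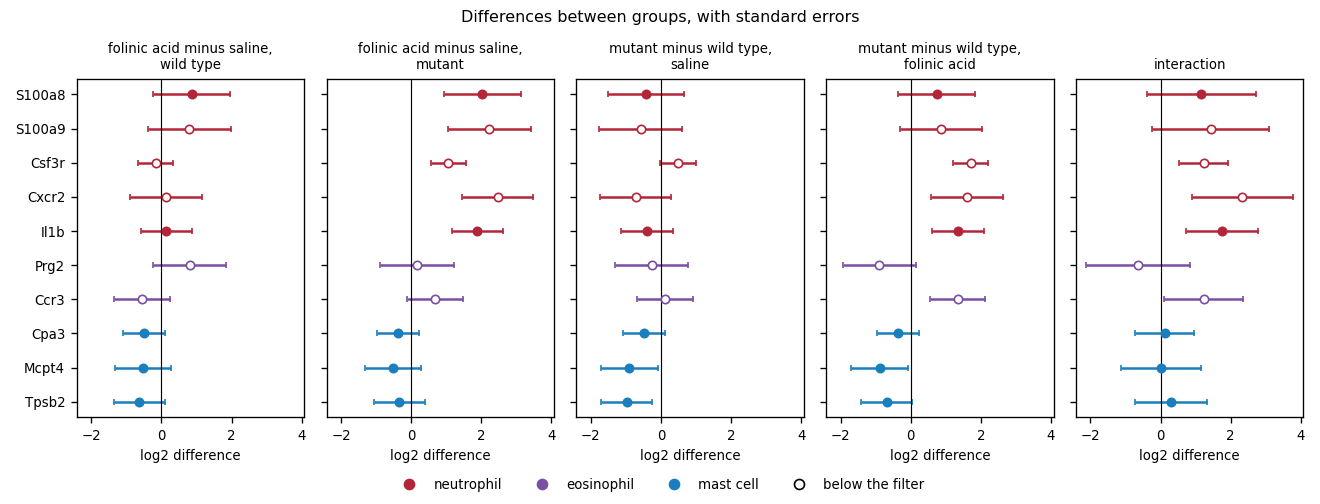
Log2 differences of the 10 genes in the 4 comparisons of groups and the interaction; points are limma estimates, bars standard errors, and open points genes below the filter. The neutrophil genes lie to the right of 0 after folinic acid in mutants, from 1.06 to 2.47. The mast cell genes, Tpsb2 read from its brighter probe set, lie to the left of 0 in all 4 comparisons of groups. No point passed the threshold.

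Several other leucocyte genes were highest in the same mutant uterus. Replicate 1 of the mutants given folinic acid had the highest signal of the pan-leucocyte gene Ptprc, 5057 against 602 to 2573 elsewhere, and of the myeloid lysozyme gene Lyz2, named after its values were seen, 20818 against 2848 to 10606. Of 20 macrophage and dendritic cell genes, 18 had a probe set and 16 were above the filter, and their summed signal was 76967 in that array, with 17303 to 28232 in the rest of its group. The other groups reached 38707 in wild type with saline, 26724 in wild type with folinic acid and 25297 in mutants with saline. Ccr2 of this list was not highest in that array. It gave 2448 there, with 2824 in wild-type folinic acid replicate 3 and 2586 in mutant folinic acid replicate 4. After folinic acid in mutants Ccr2 had the smallest p of the list (1.32 ± 0.29, limma adjusted p = 0.125). Its signals were 699 to 963 in mutants with saline, below every other array, and 1342 to 2586 in mutants with folinic acid. Wild types gave 1412 to 2279 with saline and 1158 to 2824 with folinic acid. Lymphocyte genes (4 of 13 above the filter) summed to 4554 in mutant folinic acid replicate 1 and at most to 2775 in the other groups. The blood list (3 of 9 above the filter) did not follow: it summed to 1678 there, within the 1037 to 2492 of all arrays. The summed uterine markers were lowest there, at 137962, against 143714 to 221169 outside that group. The actin ratio of that array was 1.54, the lowest of the 14, and that of replicate 3 was 3.12. S100a8 had r = 0.78 with the mean of the further neutrophil genes and r = 0.65 with that of the macrophage genes over 14 arrays (permutation p = 0.00539 and 0.0313, adjusted p = 0.0363 and 0.0952 over 18 relations), and r = -0.70 with that of the uterine markers (permutation p = 0.0044, adjusted p = 0.0363). Without replicates 1 and 3 of the mutants given folinic acid these were 0.08, -0.05 and -0.45. The part of other leucocytes and of RNA quality in the result for neutrophil genes was not tested.

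Further neutrophil genes were counted from a list of 33, of which 23 had a probe set and 9 were above the filter. None passed in any comparison. After folinic acid in mutants 9 of 9 had higher means, 4 of them at an unadjusted p under 0.05, as 6.07% of probe sets kept were (12.8% in either direction), with a median of 0.97 against 0.01 over all probe sets kept. The macrophage and dendritic cell genes gave 15 of 16 with higher means, 7 of them at an unadjusted p under 0.05, and a median of 0.68. Examples were Itgb2, the beta-2 integrin of leucocytes (1.51 ± 0.55), Ncf4 of the phagocyte oxidase (0.97 ± 0.37) and Pglyrp1, a peptidoglycan-binding granule protein (1.70 ± 0.65), with adjusted p of 0.285, 0.297 and 0.300. Itgb2 and Ncf4 are shared with macrophages. The 9 also held Ncf1, Cybb, Alox5ap, Csf2rb, Hp and Mmp9. With shared genes among them, the count does not mark neutrophils alone. Granule genes made in bone marrow precursors, Mpo, Elane, Ngp and Camp, were below the filter. So were the list's Mmp8, Cd177, Fpr2, Trem1, Trem3, Itgam, Il1r2, Clec4d, Clec4e and Stfa3. The count of 9 therefore holds none of these markers. The list's mean log2 signal was highest in replicate 1 (10.6) and next in replicate 3 (9.57) of the mutants given folinic acid, and lowest in replicate 2 (8.05). In wild type 3 of 9 were higher after folinic acid, and under saline 8 of 9 were lower in mutants (median -0.47).

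Neutrophil-attracting and interleukin-1 signals were read together from a list of 20 genes, 8 of them above the filter, and none passed. The 8 were Csf3, Cxcl1, Pf4, Il1r1, Il1rap, Il18, Casp1 and Tlr4, so not all of them are signals that call neutrophils. Csf3, the gene of G-CSF and thus of the ligand of Csf3r, had a log2 difference of 1.08 ± 0.35 after folinic acid in wild type (unadjusted p = 0.00705, adjusted p = 0.999995). Between genotypes under saline it was 0.75 ± 0.35 (adjusted p = 0.9998). Under folinic acid the difference of Csf3 between genotypes was -0.23 ± 0.35 (adjusted p = 0.9994). Its interaction was -0.98 ± 0.49 (adjusted p = 0.905), so its response was lower in mutants than in wild type, though not past the threshold. Cxcl1, a ligand of Cxcr2, had a difference of 0.80 ± 0.37 after folinic acid in mutants (adjusted p = 0.381), and Tlr4 one of 0.49 ± 0.28. In that comparison 7 of 8 were higher, with a median of 0.23. Il1a, Il1rn, Il6, Tnf, Cxcl2, Cxcl3 and Cxcl5 were below the filter.

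The eosinophil genes carried little signal. Prg2 encodes major basic protein, the main granule protein of eosinophils, and ranged from 3.29 to 59.7 with a median of 27.3. Ccr3, the eotaxin receptor that brings eosinophils into tissue, ranged from 1.65 to 16.9 with a median of 3.60. Prg2 differed widely within groups, as in wild type with saline, where it was 17.9, 3.97, 56.5 and 36.6, and Ccr3 was highest in mutant folinic acid replicate 4. Their log2 differences lay between -0.90 ± 1.05 (Prg2) and 1.33 ± 0.80 (Ccr3), both between genotypes under folinic acid, and had adjusted p of 0.816 or more. A common order of both genes was not seen (r = -0.28 over 14 arrays, permutation p = 0.338, adjusted p = 0.638). Of 20 further genes of eosinophils and their attraction, 15 had a probe set and 5 were above the filter. That filter also averaged over the mutants given folinic acid. All 5 were higher after folinic acid in mutants and none passed the threshold. They included the chemokines Ccl5 (1.77 ± 0.63, adjusted p = 0.272) and Ccl11, or eotaxin (0.70 ± 0.45 for the interaction, adjusted p = 0.910), and the macrophage and eosinophil gene Adgre1 (1.15 ± 0.53, adjusted p = 0.384).

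Mast cell genes differed between uteri of the same group, and the groups overlapped. Cpa3 encodes the carboxypeptidase A of mast cell granules. Signals of Cpa3 were 1271, 562, 864 and 1185 in wild type with saline, 436, 1515 and 427 in wild type with folinic acid, 412, 1543 and 459.7 in mutants with saline and 816, 1129.8, 232 and 317 in mutants with folinic acid. Each group held arrays more than 2-fold apart, and the highest, mutant saline replicate 2, stood beside low arrays of its own group. Mcpt4 encodes the chymase of connective tissue mast cells. Signals of Mcpt4 were 469, 190.3, 359 and 478 in wild type with saline, 181, 755 and 106 in wild type with folinic acid, 112, 518 and 115 in mutants with saline and 303, 319, 31.4 and 99.9 in mutants with folinic acid. Its arrays followed the order of Cpa3 closely, from replicate 3 of the mutants given folinic acid at the bottom to replicate 2 of the wild types given folinic acid near the top.

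Tpsb2 encodes a tryptase stored in the same granules, and Tpsab1 is a close paralogue of it. Signals of Tpsb2 were 364, 133, 439 and 456 in wild type with saline, 169, 598 and 82.2 in wild type with folinic acid, 137, 402 and 74.3 in mutants with saline and 265, 208, 51.5 and 89.1 in mutants with folinic acid. The same arrays were again high and low. The second Tpsb2 probe set was dim, from 3.03 to 71.0, and hardly followed the first (r = 0.12 over 14 arrays). Its log2 differences were 1.08 ± 1.10 after folinic acid in mutants and 0.44 ± 1.10 between genotypes under folinic acid, opposite in sign to the first. After folinic acid in wild type it had -1.16 ± 1.10, and between genotypes under saline -1.79 ± 1.10, with the same sign as the first. Uteri that share a number in their sample titles, whose meaning is not stated, differed as well. Wild-type folinic acid replicates 1 and 2 were 3.48-fold apart for Cpa3, 4.17-fold for Mcpt4 and 3.54-fold for Tpsb2. Wild-type saline replicates 2 and 3 were less far apart, 1.54-fold, 1.89-fold and 3.30-fold.

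No mast cell gene passed in any comparison. After folinic acid the differences in wild type were -0.50 ± 0.60 for Cpa3, -0.53 ± 0.81 for Mcpt4 and -0.63 ± 0.73 for Tpsb2, and in mutants -0.38 ± 0.60, -0.51 ± 0.81 and -0.34 ± 0.73. In mutants against wild type they were -0.48 ± 0.60, -0.90 ± 0.81 and -0.97 ± 0.73 under saline, and -0.36 ± 0.60, -0.89 ± 0.81 and -0.68 ± 0.73 under folinic acid. The interaction lay between 0.01 ± 1.14 (Mcpt4) and 0.29 ± 1.03 (Tpsb2). The smallest unadjusted p of these 15 values was 0.202, for Tpsb2 between genotypes under saline. Single arrays set the sign of some of these. Without wild-type folinic acid replicate 3 the differences after folinic acid in wild type were 0.072 for Mcpt4 and 0.020 for Tpsb2. Without mutant saline replicate 2 those in mutants were 0.23 for Cpa3, 0.22 for Mcpt4 and 0.32 for Tpsb2. Between genotypes under saline no single array turned the sign of a mast cell gene. The ranges there were -1.09 to -0.14 for Cpa3, -1.63 to -0.53 for Mcpt4 and -1.63 to -0.42 for Tpsb2.

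**Figure D3:**
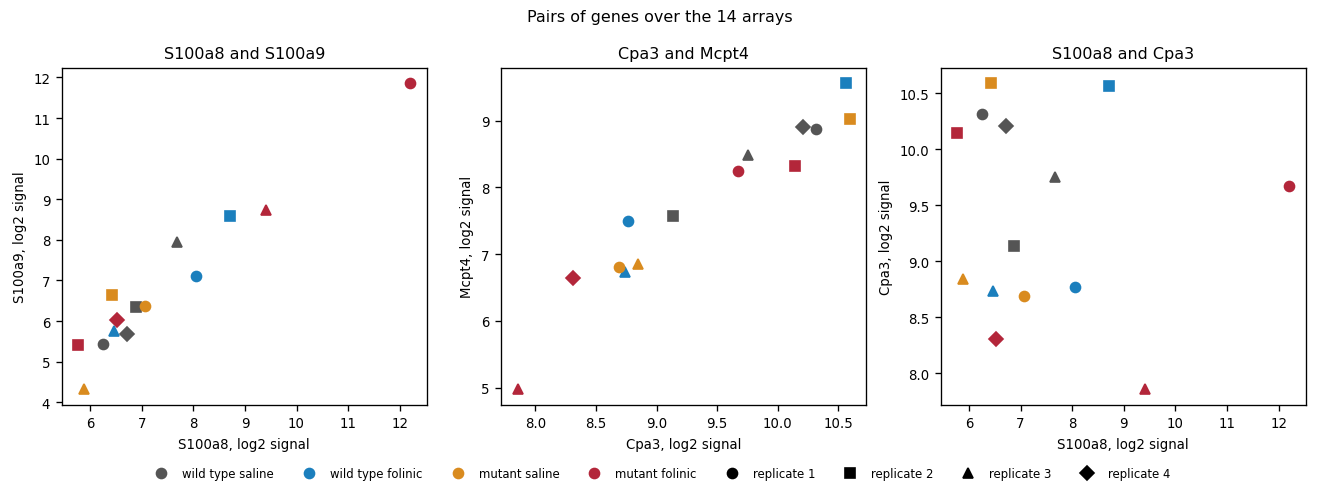
Log2 signals of pairs of genes on the 14 arrays; colour gives the group and marker shape the replicate. S100a8 and S100a9 rise together, as do Cpa3 and Mcpt4, whereas S100a8 and Cpa3 show no common order (r = -0.09).

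The mast cell genes varied together across uteri, also within groups. Pearson's r over 14 arrays was 0.96 for Cpa3 and Mcpt4 (Spearman's rho 0.98; permutation p = 1e-05 for each, the smallest 100000 resamples can give; adjusted p = 0.00015 over the 45 pairs). It was 0.95 for Mcpt4 and Tpsb2 (rho 0.93, permutation p = 1e-05, adjusted p = 0.00015) and 0.91 for Cpa3 and Tpsb2 (rho 0.85, permutation p = 4e-05, adjusted p = 0.00045). With group means removed these were 0.97, 0.94 and 0.91, and without the 2 arrays farthest from the median 0.96, 0.95 and 0.88.

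S100a8 and S100a9 varied together as closely, with r = 0.97 (rho 0.91, permutation p = 1e-05, adjusted p = 0.00015). Without replicates 1 and 3 of the mutants given folinic acid, which were also the 2 farthest from the median, r was 0.91 over 12 arrays (permutation p = 0.00011). The other neutrophil pairs rested on those 2 arrays. Over all 14 arrays r was 0.85 for S100a8 and Il1b, 0.79 for S100a9 and Cxcr2 and 0.71 for S100a8 and Csf3r. Without both it was 0.07, 0.55 and -0.17. In all, 6 of 10 neutrophil pairs passed at an adjusted p of 0.05 over 14 arrays and 1 over the 12. Pairs between lineages passed too under some settings, among them pairs with an eosinophil gene far below the filter. Over the 12 arrays these were Cxcr2 with Prg2 (r = 0.85, adjusted permutation p = 0.00124) and Csf3r with Ccr3 (0.78, 0.0149). With group means removed they were Prg2 with Tpsb2 (0.69, 0.0237) and Il1b with Ccr3 (-0.72, 0.0207). Between neutrophil and mast cell genes no pair passed over 14 arrays: the 15 pairs had r from -0.29 to 0.22 with a median of -0.05. Without the 2 arrays farthest from the Csf3r median, wild-type folinic acid replicate 3 and mutant folinic acid replicate 1, Csf3r had r of -0.70 with Cpa3 (permutation p = 0.00632, adjusted p = 0.0355), -0.81 with Mcpt4 (permutation p = 0.00156, adjusted p = 0.01) and -0.81 with Tpsb2 (permutation p = 0.00046, adjusted p = 0.00345). These did not hold under the other settings: for Csf3r with Cpa3, Mcpt4 and Tpsb2 r was -0.24, -0.25 and -0.29 without replicates 1 and 3 of the mutants given folinic acid, and -0.06, 0.01 and 0.06 with group means removed. Under both settings none of the 15 pairs passed. Replicate 3 of the mutants given folinic acid was second highest for S100a8 and lowest for Cpa3, Mcpt4 and Tpsb2.

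**Figure D4:**
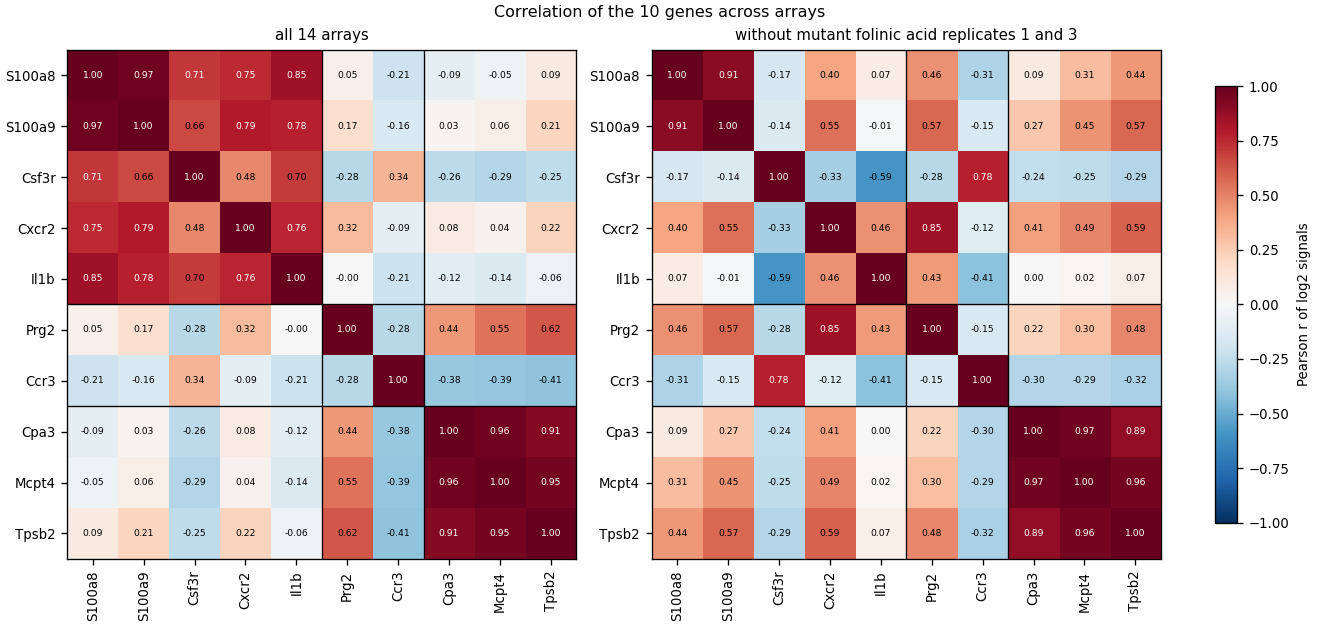
Pearson's r of log2 signals for all pairs of the 10 genes, over 14 arrays (left) and over the 12 arrays without replicates 1 and 3 of the mutants given folinic acid (right); black lines separate neutrophil, eosinophil and mast cell genes. The mast cell block and the pair S100a8 and S100a9 stay near 0.9 in both panels, while the other neutrophil pairs drop.

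Uteri of the same group differed more in these genes than in most probe sets kept, which were not matched to them for brightness. The pooled SD within groups was 1.74 on the log2 scale for S100a8, 1.93 for S100a9 and 1.14 for Il1b, against a median of 0.29 over probe sets kept. It was 1.27 for Mcpt4, 1.14 for Tpsb2 and 0.94 for Cpa3, at percentiles 99.7, 99.5 and 98.9 of the probe sets kept. Without replicates 1 and 3 of the mutants given folinic acid the SD was 0.76 for S100a8, 1.18 for S100a9 and 0.46 for Il1b, and 1.12 for Mcpt4, 1.12 for Tpsb2 and 0.93 for Cpa3. Over all 14 arrays the highest signal was 86.0 times the lowest for S100a8, 187 times for S100a9, 24.0 times for Mcpt4 and 6.66 times for Cpa3.

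The genes most like each member were ranked by Pearson's r over the 14 arrays among probe sets kept with 1 symbol. For all 3 mast cell genes the first was Cma1, another mast cell chymase gene, with r of 0.92 for Cpa3, 0.90 for Mcpt4 and 0.93 for Tpsb2 (0.93, 0.95 and 0.93 over the 12 arrays). After it came the growth factor gene Ptn (0.88) and Rarres2, which encodes chemerin (0.85), for Cpa3. For Mcpt4 they were Srebf2 (0.87) and the smooth muscle phosphatase inhibitor gene Ppp1r14a (0.87), and for Tpsb2 Ppp1r14a (0.87) and Scrn1 (0.86). S100a8 was followed by the phosphodiesterase gene Pde4b (0.92), Clu, or clusterin (0.92), and the myeloid gene Slfn4 (0.92), which had r of 0.59, 0.65 and 0.53 over the 12 arrays. For S100a9 they were Pde4b (0.91), Clu (0.88) and Msn (0.85), and for Il1b Slfn4 (0.96), Ms4a6d (0.96) and Tnfaip2 (0.96). Those of Csf3r were Cdk2 (0.85), Smg1 (0.85) and Crlf3 (0.84), and those of Cxcr2 Trpv2 (0.92), Pla1a (0.91) and Clu (0.91). The dim Prg2 was led by Hspa9 (0.85) and Ccr3 by Rbm6 (0.82), neither a gene particular to eosinophils.

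Other mast cell and basophil genes were counted from a list. Of its 27, 23 had a probe set and 8 were above the filter, Cma1 among them, and none passed in any comparison. Their mean had r = 0.39 with Cpa3 (rho 0.43, permutation p = 0.165, adjusted p = 0.33 over 18 relations) and r = 0.68 with S100a8 (rho 0.58, permutation p = 0.00605, adjusted p = 0.0363). Without replicates 1 and 3 of the mutants given folinic acid r was 0.62 with Cpa3 (permutation p = 0.0317, adjusted p = 0.571) and 0.50 with S100a8 (permutation p = 0.0945, adjusted p = 0.648). Hdc, the histamine-forming enzyme that uterine epithelium also makes, had a log2 difference of -1.81 ± 0.65 after folinic acid in mutants (adjusted p = 0.275). Kit, the stem cell factor receptor, had one of 0.82 ± 0.37 and Mitf, a mast cell and melanocyte transcription factor, one of 0.80 ± 0.33, with adjusted p of 0.379 and 0.334. Fcer1a, Ms4a2 and Tpsab1, which mark mast cells, were below the filter. Adipocyte genes, which mark fat attached to a uterus (4 of 8 above the filter, summed signals from 1076 to 49743 over the arrays), had r = 0.02 with Cpa3 and r = -0.25 with S100a8, with adjusted permutation p of 0.945 and 0.573.

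As a list, the 10 members had medians of -0.02 after folinic acid in wild type, 0.87 after it in mutants, -0.45 for genotype under saline, 0.80 under folinic acid and 1.19 for the interaction. Over all probe sets kept the medians were 0.006, 0.01, -0.02, -0.01 and 0.005. After folinic acid in mutants 7 of 10 were higher and the 3 mast cell genes lower. Between genotypes under saline 8 of 10 were lower, all but Csf3r and Ccr3. Without mutant folinic acid replicate 1 the median between genotypes under folinic acid was -0.46 and that of the interaction 0.042.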

How the data were processed

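RNA of 14 mouse uteri was labelled with biotin and read on Affymetrix arrays. The deposited values are intensity signals made by the authors with MAS5, per the submitters' processing notes, scaled so that the trimmed mean of each array is 500.002 to 500.003. They are not logged, and some lie below 1. Signals under 1 were raised to 1 (0.505% of values) and log2 was taken. Of 45101 probe sets, 64 controls were left out, and 22519 of the remaining 45037 were kept, those whose mean log2 signal was at or above the median. limma 3.58.1 in R 4.3.3 fitted the 4 group means with a trended eBayes prior over all arrays, and p-values were adjusted by Benjamini-Hochberg over all probe sets fitted, with a threshold of 0.05. Members below the filter were read from the same fit over all 45037. A fold or log2 difference of dim genes is understated or unstable. The fit was tested on simulated data.

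Gene names come from the platform annotation, which gives 34945 probe sets 1 symbol, 932 several and 9160 none; a gene with several probe sets was read from its brightest. Members were named whatever their values, from each further list up to 3 genes with the smallest p in each comparison, and for each member the 3 genes with the highest Pearson r; others were named for their role or after their values were seen. The 10 members and the lists were chosen with earlier results of these data known. Correlations use log2 signals and permutation tests with 100000 resamples, adjusted over 45 pairs. Alternatives were an offset of 16, other filters, quantile normalization, the replicate number as a block, fits of the groups compared alone and leaving out arrays. The number of arrays limits the precision, and no scan batch was used.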

Additional observations from a re-analysis of the deposited data

Results flagged for a closer look

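In a screen of 40 combinations of a gene, a group of 4 arrays and a scale (signal or log2 signal), 4 had an extreme array whose gap to the nearest of the others took up more of the group's range than Dixon's 95% critical value allows; chance gives such a gap in about 1 in 20 groups. In mutants given folinic acid, replicate 1 was the far array for S100a8 (signal 4708, gap ratio 0.865), S100a9 (signal 3716, gap ratio 0.895) and Il1b (signal 2080, gap ratio 0.849), all on the linear scale. Replicate 3 of the same group was the far low array for the dim eosinophil gene Prg2 (log2 signal 1.72, gap ratio 0.842).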

How the results depend on the processing

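No member passed the threshold in any comparison under any alternative run. Without a filter 2 probe sets passed after folinic acid in mutants, 3 between genotypes under saline and 2 under folinic acid, and with only the compared groups fitted 2 passed under saline; with arrays left out in turn the counts ran from 0 to 662 after folinic acid in mutants and from 1 to 2 under saline. In the filter at the upper 35% only Cpa3 was left, so the medians became -0.38 for folinic acid in mutants, -0.36 between genotypes under folinic acid and 0.12 in the interaction. With arrays left out in turn the median ran from -0.46 to 1.53 between genotypes under folinic acid, and the interaction's from 0.042 to 1.44; without replicates 1 and 3 of the mutants given folinic acid, an alternative added after seeing the data, these were -0.12 and 0.37. That setting also turned S100a8 to -0.30, -1.59 and -1.17 and S100a9 to -0.060, -1.43 and -0.85 (folinic acid in mutants, genotype under folinic acid, interaction), Il1b to -0.11 between genotypes under folinic acid, and the interaction of Prg2 to 0.24. An offset of 16 turned Ccr3 to -0.00062 for genotype under saline. Arrays with the same replicate number did not deviate together (median r 0.01 over 19 pairs, -0.34 to 0.35). No pairing by number was seen, but such a check cannot exclude that samples were handled together. With the replicate block no count of calls changed, and the median after folinic acid in mutants was 0.96. In that setting Il1b after folinic acid in wild type became -0.039 and Prg2 after folinic acid in mutants -0.18. Prg2 for genotype under saline became 0.083 and Mcpt4 for the interaction -5.2e-05.

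With single arrays left out, 647 of 700 member differences kept their sign and 53, in 21 results, did not; of 490 under the other settings 477 did, and the cause was not tested. The ranges were as follows. Folinic acid in wild type gave -0.41 to 0.18 for Csf3r, -0.73 to 0.84 for Cxcr2, -0.12 to 0.37 for Il1b, -1.34 to 0.072 for Mcpt4 and -1.41 to 0.020 for Tpsb2. In mutants it gave -0.77 to 0.99 for Prg2, -0.76 to 0.23 for Cpa3, -0.94 to 0.22 for Mcpt4 and -0.90 to 0.32 for Tpsb2. Genotype under saline gave -1.01 to 0.15 for S100a9, -1.03 to 0.68 for Prg2 and -0.28 to 0.34 for Ccr3. Genotype under folinic acid gave -0.51 to 1.64 for S100a8, -0.42 to 1.73 for S100a9, -0.74 to 0.24 for Cpa3 and -1.33 to 0.10 for Tpsb2. The interaction gave -0.078 to 2.06 for S100a8, -1.58 to 0.19 for Prg2, -0.27 to 0.73 for Cpa3, -0.59 to 0.83 for Mcpt4 and -0.36 to 1.07 for Tpsb2.

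Of the correlations within a lineage, S100a8 with Csf3r (0.82) and S100a9 with Csf3r (0.74) passed only with group means removed. Without replicates 1 and 3 of the mutants given folinic acid r was -0.17 for S100a8 with Csf3r, 0.40 with Cxcr2 and 0.072 with Il1b, -0.14 for S100a9 with Csf3r, 0.55 with Cxcr2 and -0.012 with Il1b, -0.33 for Csf3r with Cxcr2, -0.59 for Csf3r with Il1b and 0.46 for Cxcr2 with Il1b.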
